A study of Mus musculus with 12 samples.

Results

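The Myc, Mycn and Max network was followed through newly made and total RNA of mouse embryonic stem cells (mESCs). Its members were taken by name as 10 genes of 34079 genes with an exonic or intronic value: the activators Myc, Mycn and Mycl1, their shared partner Max, the Max-binding repressors Mnt, Mxd1, Mxd3, Mxd4 and Mxi1, and the large Max-binding protein Mga. GENCODE M1 annotates 44 transcripts for them, of which 43 had both an exonic and an intronic line, and 1 transcript of Max had none. Cells of the DTCM23/49 XY line, grown on gelatin in serum with leukemia inhibitory factor, received 200 µM 4-thiouridine (4sU), a uridine analog built into RNA as it is made, for 15, 30 or 60 min. From each culture came total RNA and labeled RNA, the part recovered on streptavidin beads after the 4sU had been biotinylated. Each combination of fraction and labeling time held 2 libraries, numbered as replicates 1 and 2, giving 12 libraries in all. The replicates were a single culture split into a pair and passaged in parallel, and no sample went without 4sU. The tests treat the libraries as separate, so p-values measure the spread among libraries from sister cultures of 1 line.

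The proteins of this network share a basic helix-loop-helix leucine zipper, and most of them bind E-box DNA only as a pair with Max. Myc, Mycn and Mycl1 with Max recruit acetyltransferases and favor transcription, whereas Mnt, Mxi1 and the Mxd proteins with Max recruit Sin3 and histone deacetylases. Mga carries a T-box as well and works within a variant Polycomb complex that keeps germ line genes silent in mESCs. Myc mRNA is a textbook example of a short-lived message, and Myc and Mycn can stand in for each other in keeping stem cells in cycle.

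The values are abundances normalized to the length of exons or introns and scaled to the same sum in every library, at about 20 times the usual TPM scale, with everything at 1 or less left missing and taken here as 0. Read depth can therefore not be recovered from them, and no counting error was computed. Cell identity was checked with marker genes. All 9 stem cell markers passed the filter, a mean exonic abundance of 20 or more, and their highest transcripts summed to 16676 to 22202 in total RNA. Of the 6 fibroblast markers 1, Thy1, passed, and Col3a1, Dcn and Postn were at 0 in every library. None of the 5 primitive endoderm and none of the 3 early mesoderm markers passed, whereas both neural markers with a value, Neurod1 and Pax6, did. Their highest transcripts summed to 20.3 to 43.6 in total RNA, with Neurod1 at 25.5 ± 6.96 and Pax6 at 2.78 ± 3.20 (SD, n = 6). The filter was applied to the sum of isoforms, so Pax6 was low on its highest transcript. Introns took 6.53% to 7.41% of the summed abundance in the 6 total libraries. In labeled RNA this share was 14.8% and 13.9% in replicate 1 at 15 and 60 min, 9.35% and 10.8% at 30 min, and 7.24% and 6.99% in replicate 2 at 15 and 60 min, so those last 2 labeled libraries lay inside the range of total RNA.

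Short-lived messages of this family are known for AU-rich stretches in the 3′ untranslated region (3′ UTR), in which the pentamer ATTTA recurs. The pentamer was searched on the sense strand of the longest 3′ UTR annotated for each gene. The windows of 29 bases around it are shown for Mycn, Mycl1, Max and Mnt because each of these genes has 1 such window and they stand at different levels and turnover below. The pentamers are in capitals.
Mycn: caaaatgtatatATTTAgtgctgcacctt
Mycl1: tgcATTTAcctgaaattttgtATTTAgtt
Max: tgatgttttgatATTTAtttcctgctact
Mnt: ttttaagtggatATTTAttacaagtggcc
On NCBIM37 these transcripts are Mycn-001 at chr12:12942902-12948720 on the minus strand, Mycl1-001 at chr4:122673342-122679728 on the plus strand, Max-201 at chr12:78038256-78063235 on the minus strand and Mnt-001 at chr11:74644422-74659227 on the plus strand. The windows cover bases 829 to 857 of the 910-base 3′ UTR of Mycn, 1869 to 1897 of 1970 in Mycl1, 776 to 804 of 1299 in Max and 1006 to 1034 of 2405 in Mnt.

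The first question was which members these cells carry. Isoforms of a gene held nearly equal values, the second isoform at a median of 0.835 times the first over 5708 genes, so levels between genes are described from the transcript of highest mean in each gene. Mga, Mycn and Max stood at the top, and the rest of the network lay far below them. Mga measured 967 ± 262 in total RNA (SD, n = 6, as for all values in this paragraph), Mycn 686 ± 118 and Max 499 ± 85.0. The repressors Mnt and Mxi1 measured 53.7 ± 5.61 and 51.8 ± 5.80. Myc itself measured 37.7 ± 6.63 and Mycl1 21.6 ± 4.19. Mxd1 at 11.8 ± 4.74 and Mxd3 at 8.96 ± 1.35 were lower again, and Mxd4 was listed at 0 in 4 of the 6 total libraries. In bulk RNA, fewer cells with a transcript and less of it per cell cannot be told apart.

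Mycn was the main Myc family message in every library. Within the 6 total libraries its level was 11.4 to 22.8 times that of Myc, with a median of 20.1, and within the 6 labeled libraries 15.3 to 30.7 times, with a median of 20.8. Summing all isoforms gave smaller ratios of 5.53 to 9.51 in total RNA, where Myc is annotated with 6 transcripts and Mycn with 3. Which scale lies closer to the ratio in the cells was not tested. Against Max, Mycn measured 0.896 to 1.75 times in total RNA and 1.13 to 3.93 times in labeled RNA. The transcript used for Mga, Mga-008, is a non-coding model of 739 bases, and the highest coding transcript, Mga-001 with 25 exons, measured 983 ± 122 in total RNA (SD, n = 6). For Mycl1 the transcript used was also a short non-coding model, and the coding Mycl1-002 measured 19.7 ± 0.997 (SD, n = 6).

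**Figure D1:**
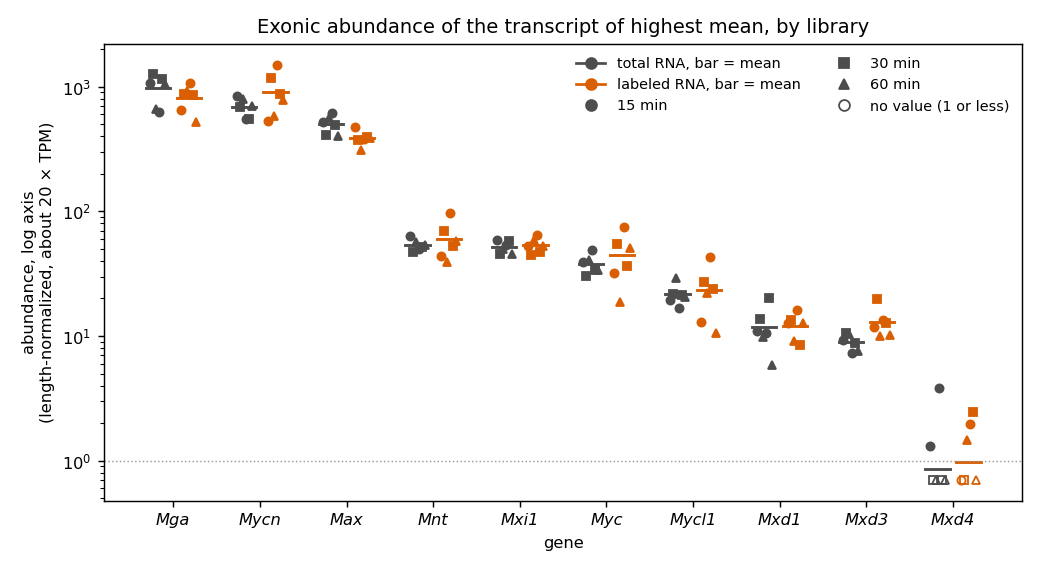
Exonic abundance (vertical, log axis) of the transcript of highest mean for each of the 10 genes (horizontal), with 1 point per library, shapes for labeling time, grey for total and orange for labeled RNA, and bars for the mean of 6 libraries. In all 12 libraries Mga, Mycn and Max lie at 312 or more and the other genes at 97.1 or less, and open symbols drawn under the dotted line at 1 mark libraries in which Mxd4 had no value.

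Neighbors in this order were compared within the 6 total libraries by a two-sided exact permutation test that flips the sign of each library's log2 difference, over 9 pairs. The smallest p the test can give is 0.03125, which the adjustment brought to 0.05625 where 5 pairs reached it, so no pair passed 0.05 on this scale. Max over Mnt, Mxi1 over Myc, Myc over Mycl1, Mycl1 over Mxd1 and Mxd3 over Mxd4 kept their direction in 6 of 6 libraries. Mga over Mycn (exact p = 0.09375), Mycn over Max (0.0625), Mnt over Mxi1 (0.4375) and Mxd1 over Mxd3 (0.21875) did not. With all isoforms summed, the order was Mga, Mycn, Max, Myc, Mxi1, Mnt, Mycl1, Mxd3, Mxd1 and Mxd4, in which 6 of the 9 pairs reached an adjusted exact p of 0.046875. Mycn over Max, Myc over Mxi1 and Mxd3 over Mxd1 did not differ beyond their spread there. The order of Myc, Mxi1 and Mnt among themselves was thus turned around between both scales.

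The second question was which members are richer or poorer in labeled than in total RNA. Exons of the activators Myc, Mycn and Mycl1 did not differ between the fractions beyond the spread of the libraries. Summed over its isoforms, Mycn exons measured 1521, 1291 and 1394 in total RNA of replicate 1 at 15, 30 and 60 min and 1100, 1042 and 1280 in replicate 2. In labeled RNA they measured 1112, 2247 and 1133 in replicate 1 and 2847, 1655 and 1494 in replicate 2. Labeled values were above their total partner in 4 of 6 pairs, and the groups overlapped. The difference was 0.38 ± 0.22 on the log2 scale (SE, n = 6 labeled and 6 total libraries, not paired, adjusted p = 0.259, limma). It was 0.75 without replicate 1 and 0.017 without replicate 2, neither of them called.

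Myc exons measured 173, 136 and 171 in total RNA of replicate 1 at 15, 30 and 60 min and 199, 149 and 158 in replicate 2. Labeled RNA gave 145, 253 and 90.7 in replicate 1 and 350, 166 and 192 in replicate 2. The lowest and the highest of the 12 values were thus both labeled, and the log2 difference was 0.16 ± 0.25 (SE, adjusted p = 0.690). Mycl1 ran from 71.3 to 99.9 in total and from 59.4 to 145 in labeled RNA, with a log2 difference of 0.05 ± 0.20 (SE, adjusted p = 0.887). For all 3 activators the highest exonic value of the 12 came from labeled RNA of replicate 2 at 15 min, a library whose intronic share was within the range of total RNA. Both labeled libraries with the highest intronic share, replicate 1 at 15 and 60 min, held the 2 lowest labeled exonic values of Myc and of Mycn. The part of this in the comparison was not tested beyond the fits without single replicates.

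Max, the obligate partner, measured 1034, 787 and 1183 in total RNA of replicate 1 at 15, 30 and 60 min and 1342, 959 and 754 in replicate 2. In labeled RNA it measured 912, 727 and 593 in replicate 1 and 723, 760 and 785 in replicate 2. It was below its total partner in all pairs but that of replicate 2 at 60 min. The log2 difference was -0.41 ± 0.14 (SE, adjusted p = 0.070), which did not pass the test. Mga, with 11403, 12779 and 8452 in total RNA of replicate 1 and 7650, 11484 and 10852 in replicate 2, gave a log2 difference of -0.37 ± 0.16 (SE, adjusted p = 0.137). It was called only when each library was centred on its median, at -0.35 with an adjusted p of 0.048. Among the repressors, log2 differences were 0.14 ± 0.16 for Mnt and 0.05 ± 0.12 for Mxi1 (SE), with adjusted p of 0.583 and 0.811. Mxd3 exons measured 13.4, 14.7 and 26.9 in total RNA of replicate 1 at 15, 30 and 60 min and 12.8, 15.8 and 16.3 in replicate 2, and in labeled RNA 34.0, 46.3 and 21.5 in replicate 1 and 27.9, 28.9 and 15.5 in replicate 2. They lay above total RNA in both replicates at 15 and 30 min and below it at 60 min. The log2 difference of 0.73 ± 0.29 (SE, adjusted p = 0.105) did not pass over all times, and without the libraries of 60 min it was called at 1.19 with an adjusted p of 0.0161.

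Of 8 members past that filter, 0 were called at an adjusted p under 0.05, and 3, Max, Mxd3 and Mga, had an unadjusted p under that value. Over all genes 16.8% of 13977 were called in either direction, with 4539 at an unadjusted p under 0.05, and the median log2 difference of all genes was -0.05. Mxd1 and Mxd4 were under the filter, Mxd1 at 5.83 to 19.99 in total and 8.51 to 16.3 in labeled RNA. A replicate block was also fitted, in which the labeled and total library of the same number and labeling time form a block. With it the calls over all genes went from 2353 to 1270, and the members called stayed at 0.

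**Figure D2:**
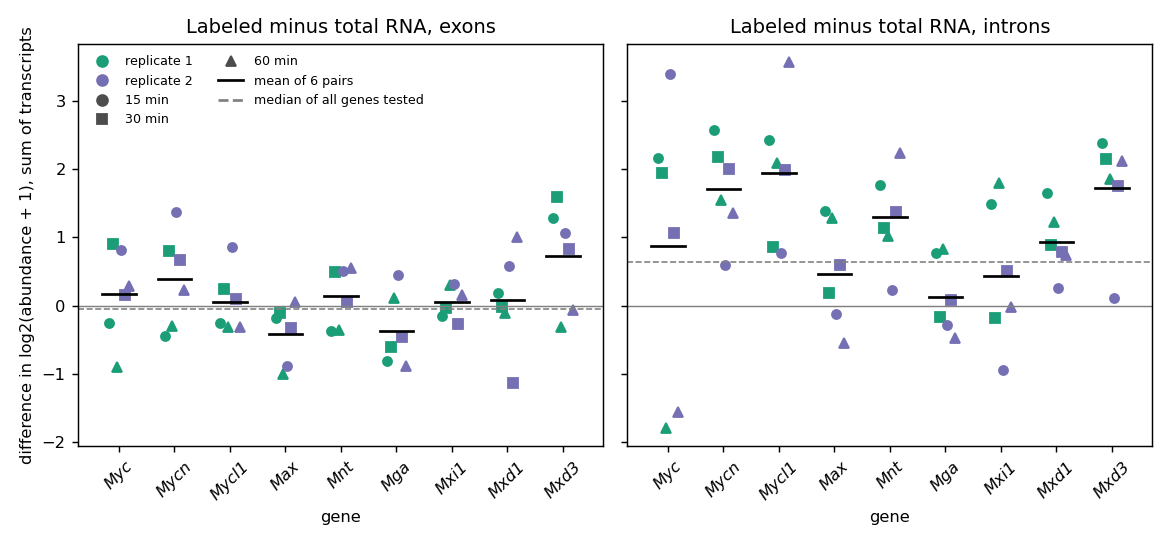
Difference in log2(abundance + 1) between labeled and total RNA (vertical) within each of the 6 pairs of libraries for 9 genes (horizontal), exons left and introns right, with colors for replicate, shapes for labeling time, black bars for the mean of 6 pairs and a dashed line for the median of all genes tested. Exonic points lie on both sides of 0 for every gene, whereas intronic points of Mycn, Mycl1, Mnt, Mxd1 and Mxd3 are above 0 in 6 of 6 pairs. How many of all genes do the same was not computed. The intronic median of all genes tested is itself above 0, at 0.65, and introns of Mycl1, Mnt and Mxd1 are below the filter. Mxd4 is left out for its missing values.

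Introns are present only until a precursor is spliced, and they were compared in the same way. Intronic RNA of Mycn and of the repressor Mxd3 was higher in labeled RNA, and that of Max, Mxi1 and Mga did not pass the test. Introns of Mycn measured 108, 78.0 and 106 in total RNA of replicate 1 at 15, 30 and 60 min and 99.1, 99.9 and 65.6 in replicate 2. Their labeled values were 651, 356 and 312 in replicate 1 and 150, 405 and 170 in replicate 2. Every labeled library was above every total library, and the log2 difference was 1.71 ± 0.34 (SE, adjusted p = 0.00263, limma). Among all genes tested this difference was at percentile 98.1.

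Mxd3, a repressor expressed in cells in S phase, had introns at 16.8, 11.1 and 19.7 in total RNA of replicate 1 and 29.2, 20 and 15.1 in replicate 2. Labeled RNA held 91.5, 52.5 and 74.0 in replicate 1 and 31.6, 69.6 and 69.1 in replicate 2, again with no overlap. The log2 difference was 1.73 ± 0.31 (SE, adjusted p = 0.00164), at percentile 98.2. These introns passed the filter of 20 only through labeled RNA, with a mean of 18.6 in total and 64.7 in labeled libraries. Without a filter the adjusted p of Mxd3 was 0.00302 by limma. The smallest of its 6 pair differences, 0.11, belonged to replicate 2 at 15 min, as did the smallest of Mycn, 0.59. The 3′ end of Mxd3 shares 104 bases with Prelid1 on the other strand in GENCODE M1, and whether the counting used strand was not given in the sources used here.

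For Max, introns ran from 55.0 to 67.2 in total and from 39.5 to 166 in labeled RNA, and for Mxi1 from 32.1 to 44.6 and from 20.01 to 132. Mga introns ran from 529 to 824 and from 413 to 1247. In each of these 3 genes the 2 highest labeled values were those of replicate 1 at 15 and 60 min, the libraries of highest intronic share, and the lowest were those of replicate 2 at 15 and 60 min. Their log2 differences were 0.46 ± 0.34, 0.44 ± 0.41 and 0.12 ± 0.29 (SE), with adjusted p of 0.288, 0.399 and 0.743. These 3 genes carry more annotated intron than the other 2, with 23002, 41402 and 5351 bases in the transcript of highest mean against 1999 for Mycn and 3264 for Mxd3, and the coding Mga-001 has 58540.

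Of the 5 members tested on introns, 2 were called higher in labeled RNA, and over all genes 32.3% of 9117 were called higher, so the count is close to that of the whole transcriptome. Mxd3, counted among these 2, passed the filter only through labeled RNA, so the count is a description and no result about the members. The median log2 difference of all genes was 0.65. With each library centred on its median, which takes this shift away, Mycn (1.01, adjusted p = 0.00814) and Mxd3 (1.02, adjusted p = 0.0220) stayed higher, where 8.29% of genes were called higher. On the same scale Mga was lower in labeled RNA, at -0.58 with an adjusted p of 0.0109, where 10.5% of genes were called lower, and Max and Mxi1 turned to -0.24 and -0.26 without passing the test. Without the 2 labeled libraries of highest intronic share Mycn was at 1.34 and Mxd3 at 1.53, both still called. Without replicate 2, Mxi1 was called as well, at 1.03 with an adjusted p of 0.0437.

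Introns of the other 5 genes were below the filter. Their values were low, and those of Mnt and Mxd1 were higher in each labeled than in each total library. Mnt introns measured 4.34 to 12.5 in total and 14.8 to 33.9 in labeled RNA, and Mxd1 introns 1.23 to 2.26 and 2.49 to 8.81. Introns of Mycl1 measured 0 to 4.45 in total and 4.37 to 15.2 in labeled RNA, with an overlap at the edge. In all, 4 of the 10 genes, Mycn, Mxd1, Mxd3 and Mnt, had every labeled library above every total library, as did 12.8% of the 20368 genes with any intronic value. Without the filter, 5 of 10 were called higher, Mycl1, Mnt and Mxd1 joining the other 2 at 1.95, 1.30 and 0.93, against 22.7% of genes. Myc introns were near the limit of the table, at 0 to 14.02 in total and 3.32 to 26.6 in labeled RNA, and their order turned between labeling times. Mxd4 introns had a value in 1 library of 12.

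**Figure D3:**
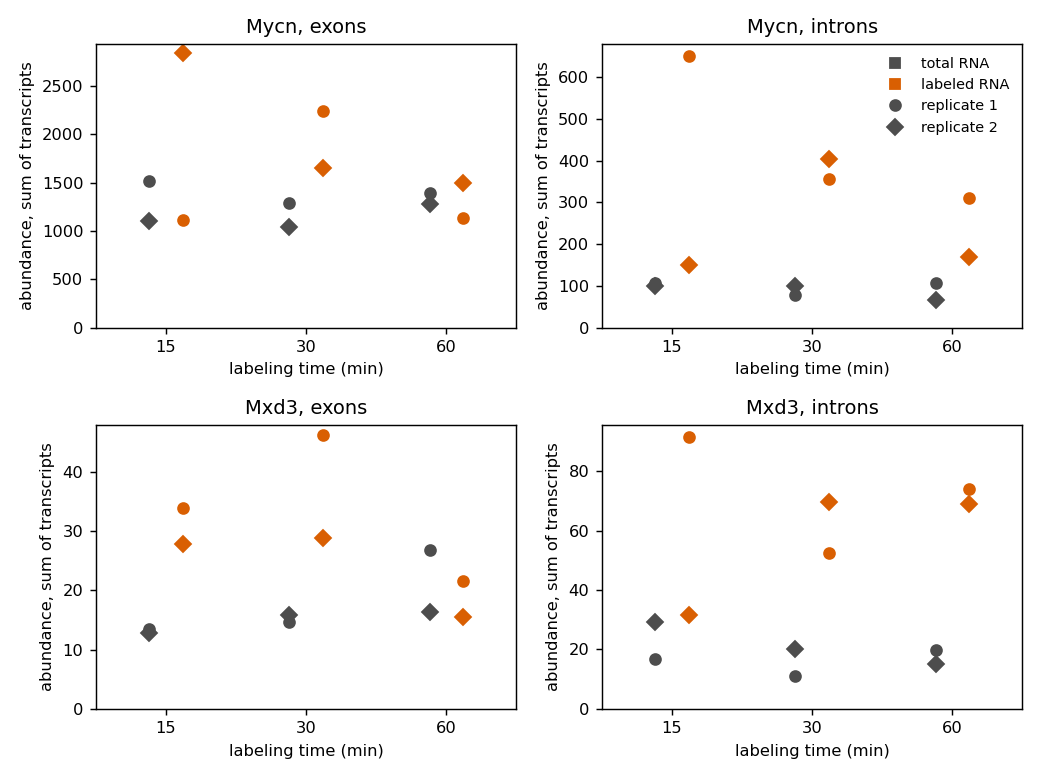
Abundance summed over isoforms (vertical, from 0) of exons (left) and introns (right) of Mycn (top) and Mxd3 (bottom) by labeling time in min (horizontal), with grey for total RNA, orange for labeled RNA, circles for replicate 1 and diamonds for replicate 2. Intronic points of labeled RNA lie above all of total RNA for both genes, while exonic points overlap.

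The third question was whether introns are a larger part of a gene's RNA in the labeled fraction, which is measured within a library. Intronic abundance of Mycn was 5.12% to 9.59% of its exonic abundance in total RNA and 5.26% to 58.5% in labeled RNA, the lowest labeled value again in replicate 2 at 15 min and the highest in replicate 1 at 15 min. The log2 ratio of introns to exons was higher in labeled RNA by 1.33 ± 0.47 (SE, adjusted p = 0.048), at the edge of the threshold. The call was lost without replicate 1 (0.57, adjusted p = 0.595), without the 2 labeled libraries of highest intronic share (0.65, adjusted p = 0.178), with libraries centred on their median (0.61, adjusted p = 0.138), and also on the transcript of highest mean (1.36, adjusted p = 0.055) and without a filter (1.33, adjusted p = 0.087). With the replicate block it held, and Mxd3 joined it, at 1.00 in either fit and an adjusted p of 0.051 without and 0.036 with the block. Mxd3 fell to 0.28 with centring (adjusted p = 0.657) and was at 0.83 without the 2 labeled libraries (adjusted p = 0.182). Introns of Mxd3 were 73.2% to 227% of its exons in total RNA and 113% to 446% in labeled RNA. On the transcript of highest mean these ranges were 32.2% to 114% and 71.9% to 235%. Max reached 0.87 ± 0.40, Mga 0.49 ± 0.36 and Mxi1 0.39 ± 0.42 (SE), none of them called. Max was called without replicate 2, at 1.38 with an adjusted p of 0.0324, and fell to 0.37 without replicate 1 and 0.15 with centring. The share called higher was 1 of 5 members and 26.8% of 7731 genes.

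Single isoforms were read next, since the sum may count shared sequence more than once. Of 34 isoforms of the network past the filter, 3 were called between the fractions, all of Mga, all lower in labeled RNA, against 17.3% of 45537 transcripts in either direction. They were the coding Mga-001 (-0.41 ± 0.13, SE, adjusted p = 0.0495) and Mga-203 (-0.45 ± 0.13, adjusted p = 0.0423), and the non-coding Mga-005 (-0.56 ± 0.15, adjusted p = 0.0240). Mga-001 measured 821 to 1139 in total and 575 to 925 in labeled RNA. All 15 Mga isoforms had a negative value, from -0.62 to -0.04, and those at the upper end were Mga-010 and Mga-006, of which the latter is annotated with a retained intron. The other Mga isoforms annotated so, Mga-004 and Mga-012, were lower, at -0.39 and -0.50. The isoforms of one gene share exons and reads, so they are not separate observations. Both Max isoforms were lower in value at -0.36 and -0.46, with adjusted p of 0.0652 and 0.0880.

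For Mycn, no isoform past the filter was called, as for its sum. The coding Mycn-001 and Mycn-002 had log2 differences of 0.43 ± 0.21 and 0.32 ± 0.25 (SE), with adjusted p of 0.190 and 0.399. Another, Mycn-003, a non-coding model of 681 bases, was low at 5.36 to 12.3 in total and 9.84 to 39.6 in labeled RNA. The 5 tested Myc isoforms lay between 0.08 and 0.27, the 3 of Mxi1 between 0.04 and 0.07 and the 3 of Mnt between 0.07 and 0.32, without a call among them. For Mxd3 the coding isoform Mxd3-001 measured 7.25 to 10.5 in total and 9.98 to 19.9 in labeled RNA, while Mxd3-002, annotated with a retained intron, measured 1.73 to 9.71 and 4.08 to 14.9. None of the 3 Mxd3 isoforms passed the filter alone.

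Members were also ranked by their exonic labeled to total difference. The order was Mxd3, Mycn, Myc, Mnt, Mycl1, Mxi1, Mga and Max, where exons of Mxd3 passed the filter only through labeled RNA. Over 7 neighboring pairs and 6 pairs of libraries, no exact permutation p passed 0.05, and the smallest was 0.0625, for Mxi1 over Mga. Neighbors in this order could thus not be told apart with 6 pairs.

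Labeling time was a factor of the design too. Exonic levels of the members did not differ between 60 and 15 min beyond the spread, and no gene was called. In labeled RNA the log2 difference of 60 minus 15 min was below 0 for all 8 members tested, from -0.77 ± 0.45 for Myc to -0.09 ± 0.22 for Mxi1 (SE, n = 2 against 2 libraries), and the median of all genes was -0.09. Within replicate 1, however, it was above 0 for Mycn (0.027), Mycl1 (0.43), Mxi1 (0.20) and Mga (0.49), and within replicate 2 for Max (0.12), so for 5 of the 8 the sign differed between replicates. In total RNA it ran from -0.32 ± 0.27 for Max to 0.64 ± 0.43 for Mxd3 (SE). The change of the labeled to total difference ran from -1.36 ± 0.61 for Mxd3 to 0.15 ± 0.31 for Mxi1 (SE). Every adjusted p of the members was 1 by limma. Of 13977 genes 0.00% were called in labeled RNA, 0.00% in total RNA and 0.00% for the change of the difference, where 178, 108 and 162 genes had an unadjusted p under 0.05. Among the members 1, Mxd3, had an unadjusted p under 0.05 in these contrasts, for the change of the difference (0.0499).

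Rates of synthesis, processing and degradation describe how a message is made and lost, and they were computed from abundances and labeling time. As all libraries are scaled to 1 sum, the rate of a typical gene falls with labeling time, from a median degradation rate of 4.99 per h at 15 min to 2.37 at 30 min and 1.21 at 60 min. Rates are therefore read by their percentile among all genes with a rate, with each time divided by its median over all genes, and with the range over single times, single replicates and the transcript of highest mean. Synthesis is labeled exonic abundance per h and follows the level closely. Mga was at percentile 98.7, Mycn at 93.8 and Max at 87.7 of 20732 genes, Myc at 69.7, Mxi1 at 65.1, Mnt at 60.5 and Mycl1 at 55.9. Over the alternatives Myc ranged from 54.5 to 75.9. Mycl1 ranged from 42.5 to 62.7, on both sides of the median gene, and for both genes the low end was the transcript of highest mean. Mxd3 at 37.7 and Mxd1 at 25.0 were below the median gene. No rate was computed for Mxd4.

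Processing was taken as synthesis over the intronic abundance of total RNA. The highest were Mycl1, at percentile 97.3 of 14558 genes, Myc at 94.6 and Mycn at 91.1, and Myc and Mycl1 rest on few intronic values, Mycl1 on 30 min alone. Mnt, Max and Mga were at 85.2, 84.6 and 83.9, and Mxd1 and Mxi1 at 65.3 and 49.4. Mxd3 was lowest at 24.6, with a range of 13.8 to 37.8 over the alternatives, as its introns were abundant beside its exons. For Mycn the range was 81.6 to 93.8 and for Mga 73.5 to 86.1.

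Degradation was taken as synthesis over exonic minus intronic abundance of total RNA, which put 4 members above the median of 12064 genes. Mxd3 was at percentile 89.2, with a range of 89.2 to 93.7, but at 71.2 when rates were averaged without dividing by the median of each time. It had a rate at 60 min alone, since its intronic exceeded its exonic abundance at the other times. Mycn was at 60.6, with a range from 37.2 at 60 min to 76.5 without replicate 1. Mxi1 was at 57.1 (53.4 to 68.7) and Mxd1, whose exons were under the filter, at 56.2 (9.69 to 74.4). Myc was at 48.6, or 15.6 without that division, and ranged from 8.71 to 67.6, so these data do not place the turnover of Myc on either side of the median gene. Mnt was at 47.7 (38.1 to 59.2). Mycl1 was at 44.1, or 28.6 without that division, and ranged from 9.29 to 73.4. Mga at 13.7 (9.41 to 35.8) and Max at 10.5 (5.92 to 26.3) were in the lower part under every alternative. These are values without a test, and the low place of Max and Mga comes from the same libraries as their labeled to total difference.

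**Figure D4:**
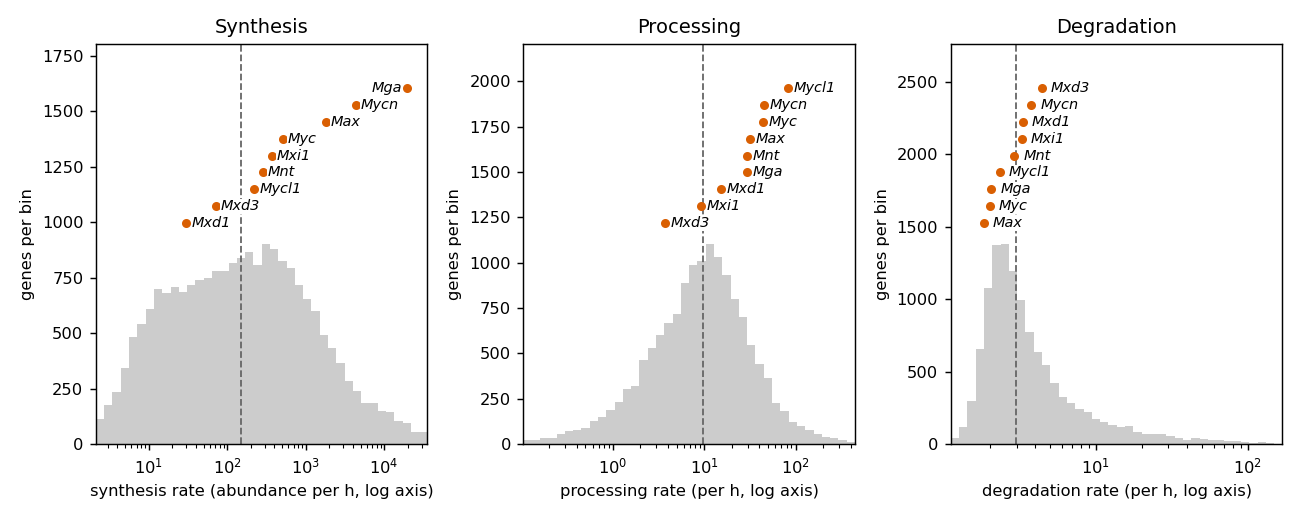
Number of genes per bin (vertical, grey bars) by average rate of synthesis, processing and degradation (horizontal, log axis), with the median of all genes as a dashed line. Orange points place the 9 members with a rate on the horizontal axis, and their height only separates the names. Mga, Mycn and Max are to the right for synthesis, Mxd3 is left-most for processing, and Max, Myc, Mga, Mycl1 and Mnt are left of the median for degradation, where Myc, Mycl1 and Mxd3 lack a rate at 1 or 2 labeling times.

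The 3′ UTRs shown above were set beside this turnover. Over 19915 genes with an annotated 3′ UTR, 61.3% held an ATTTA pentamer. Myc held 2 in 466 bases, and 19.7% of 3′ UTRs within 20% of that length held at least as many. Mycn held 1 in 910 bases, and 67.7% of 3′ UTRs of like length held at least 1. Max held 1 in 1299 bases, where 79.0% of like length held at least 1 and the median was 2. Mxi1 held 9 in 4074 bases, and 30.6% of 3′ UTRs of like length held at least as many. Mycl1 held 2 in 1970 bases, where 70.3% of like length held at least as many and the median was 3. Mnt held 1 in 2405 bases, where 91.9% held at least 1 and the median was 4. Mxd3 with 615 bases and Mxd4 with 3105 bases held none. Mxd3 was one of the 2 without the pentamer. Its degradation percentile was the highest of the members but rested on 60 min alone, and a link between pentamer and turnover was not tested. A match is a description of the letters and not a site of binding.
A 4sU label needs uridine, and the U content of these transcripts ran from 19.5% in Mxd3 to 27.8% in Mga, against a median of 24.5% over all genes. Mxd3, with the fewest, had the highest labeled to total difference of exons, but its exons passed the filter only through labeled RNA. Mga and Max, at 27.8% and 26.6%, had the lowest, but Mxi1 with 26.9% had a difference of 0.05. These pairs of values were chosen after they were seen and were not tested.

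Genes that work with the network were then followed by list. Of 19 cofactors and turnover factors of Myc, 6 were lower in labeled RNA on exons and none higher, where 11.6% of all genes were called lower and 5.28% higher, with a median log2 difference of -0.34 beside -0.05 over all genes. Among them Huwe1, a ubiquitin ligase for Myc, was at -0.60 ± 0.15 (SE, adjusted p = 0.0175) and Trrap, the scaffold that Myc recruits with acetyltransferases, at -0.50 ± 0.13 (SE, adjusted p = 0.0263). The acetyltransferase Kat5 at 0.31 was not called. On introns 4 of 17 were higher in labeled RNA, against 32.3% of all genes, led by Ruvbl2 at 1.31 and Aurka at 1.14, with a median of 0.52 beside 0.65 over all genes.

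Of 11 partners of Mga in its Polycomb complex, 3 of which are also cofactors of Myc in the list above, 3 were lower in labeled RNA on exons and none higher, against 11.6% of genes called lower, with a median of -0.37. Tfdp1, the partner of E2f6, was at -0.68 ± 0.09 (SE, adjusted p = 0.00140), and the ubiquitin ligase Rnf2 at -0.74 was not called (adjusted p = 0.0520). E2f6 at -0.00109 and L3mbtl2 at -0.06 had the highest values. On introns 1 of 8, Wdr5 at 0.79, was higher, against 32.3% of genes.

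Of 25 textbook targets of Myc, 23 were tested on exons. Nop56, a nucleolar protein of ribosome assembly, was higher in labeled RNA at 0.45 ± 0.13 (SE, adjusted p = 0.0353), and 6 were lower, against 11.6% of genes, led by the nucleotide synthesis enzymes Cad at -1.01 and Ppat at -0.73. Their median was -0.27. On introns 12 of 19 were higher and none lower, against 32.3% of genes called higher, with Ran at 1.45 and Apex1 at 1.35 in front and a median of 0.86 beside 0.65 over all genes. Srm at -0.23 and Eif4e at -0.19 were lowest and not called. In the parallel Mlx branch, whose proteins sense glucose, no gene of 3 was called on exons, and Mlx introns were higher in labeled RNA at 1.24 ± 0.30 (SE, adjusted p = 0.00734).

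The genes whose exonic pattern over the 12 libraries was most like Myc were Spry4 (Pearson r = 0.940), Fiz1 (0.913), Cdc42ep3 (0.908), Mnt (0.906) and Calcoco2 (0.905), of 13976 genes compared. Those most like Mycn were Arl4c (0.934), Tut1 (0.918), Enc1 (0.915), Rpl7l1 (0.914) and Gm13080 (0.913). Myc and Mycn had an r of 0.809 with each other, which put Mycn at rank 48 for Myc and Myc at rank 117 for Mycn. The libraries share cultures, scaling and fraction, so these are descriptions of likeness in 12 libraries and carry no p.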

How the data were processed

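Labeled and total RNA libraries of mESCs were sequenced as single-end reads. The authors removed rRNA reads and aligned the rest to exonic and intronic sequences with STAR v2.5.0, quantified them with RSEM and named mm10. The deposited values are a length-normalized signal per transcript, scaled by the authors to nearly the same sum in every library, with values of 1 or less missing. Gene names came from GENCODE M1 (NCBIM37), which held 75.1% of 111672 Ensembl transcripts, and no coordinates were converted. Signal was summed per gene, with missing values as 0. Isoforms hold near-equal values, so the sum may count shared sequence more than once, and the transcript of highest mean is given for levels. If shared reads were instead divided among isoforms, that transcript understates genes with many isoforms, and which holds was not tested.

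Features with a mean of at least 20 were compared with limma 3.58.1 (R 4.3.3) on log2(value + 1), with a mean-variance trend, labeling time as a factor and Benjamini-Hochberg adjustment at 0.05 over all features. This scale understates fold changes of low genes. Differences by labeling time used 6 group means of 2 libraries. Orders were tested by exact sign flips, which treat 6 libraries or 6 pairs from 2 cultures as separate. Scripts were tested on simulated data. Rates followed INSPEcT's quantities but INSPEcT was not run. Replicate numbers were taken to mark the 2 cultures, which the labels do not state. Correlations of same-numbered deviations were -0.07, 0.05 and -0.19 at 15, 30 and 60 min and gave no sign of such a pairing. Named genes were the 10 members, the 5 most like Myc and Mycn, and the 2 of each list with the largest difference in each direction, of which 1 is not reported here. The genes in the U content sentence and single isoforms were named after their values were seen. Members and lists were chosen with earlier results of these data known. Other steps ran in Python 3.11.15 (pandas 2.3.3, scipy 1.17.1, matplotlib 3.10.9, numpy 2.4.6).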

Additional observations from a re-analysis of the deposited data

Results flagged for a closer look

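Among 39 sets of 6 libraries of 1 fraction, 4 had a highest or lowest value far from the others for its range, where chance gives about 1.95. Exons of Mxd3 reached 26.9 in total RNA of replicate 1 at 60 min, with the next library at 16.3. Exons of Mxd4 reached 6.98 in total RNA of replicate 2 at 15 min, with the next at 1.31 and the other 4 libraries at 0. Introns of Mxd1 were lowest at 1.23 in total RNA of replicate 2 at 60 min, with the next at 1.91. Introns of Mxd4 had a single value of 4.94, in labeled RNA of replicate 1 at 60 min, close to the limit below which the table holds no value.

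The labeled to total difference of Mxd3 exons was above 0 in both pairs at 15 min (1.28 and 1.06) and below 0 in both at 60 min (-0.31 and -0.07). The test of the change itself gave -1.36 with an unadjusted p of 0.0499 and an adjusted p of 1 by limma. With the transcript of highest mean, the pair of replicate 2 at 60 min was at 0.38 and that of replicate 1 at -0.05. Total RNA of replicate 1 at 60 min, named above, is one of the libraries behind this change.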

How the results depend on the processing

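The calls of Mycn and Mxd3 introns kept their direction and their side of the threshold wherever they were tested. Mxd3 exons and introns passed the filter only through labeled RNA, and were under it on the transcript of highest mean. Other member values depended on the setting, mostly on which labeled libraries entered, and causes were not tested. The replicate block takes same-numbered labeled and total libraries of a labeling time to be the same culture, which the labels do not state. With it the exonic count went from 2353 to 1270 genes and from 7888 to 4470 transcripts. The block called no member that the text does not name. Crossing the numbers at 60 min, chosen after seeing the data, gave 2716 and 9153, and called 1 member on exons, Max. Without single replicates 0 to 5 genes and 0 to 7 transcripts were called on exons, 1094 to 4801 genes on introns and 252 to 3453 on the ratio, where 2976 and 2091 were called with both. Exonic calls numbered 751 without 15 min, 1 without 30 min and 1602 without 60 min. Median centring left 1712 intronic and 878 ratio calls, with 44.2% and 53.3% of calls higher in labeled RNA against 99.0% and 99.0%. No filter gave 4659 intronic calls, and the transcript of highest mean, added after seeing the data, 1308 intronic and 869 ratio calls. On the change from 15 to 60 min, 3 genes were called in total RNA with median centring and 4 with a pseudocount of 10, which also gave 4 for the labeled to total difference, in place of 0. The neighbor order in total RNA had 6 pairs past the threshold on sums and 0 on the transcript of highest mean.

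Directions turned for values that were not called. On exons, single replicates gave -0.088 to 0.42 for Myc, -0.11 to 0.21 for Mycl1 and -0.085 to 0.37 for Mnt. Myc was at -0.015 without 30 min, Mycl1 at -0.071 without 15 min, -0.0082 without 30 min and -0.016 on its highest transcript, and Mxi1 at -0.039 without 60 min. On introns, single replicates gave -0.025 to 0.95 for Max, -0.15 to 1.03 for Mxi1 and -0.23 to 0.48 for Mga. Median centring gave -0.24, -0.26 and -0.58, and leaving out the 2 labeled libraries of highest intronic share, added after seeing the data, -0.048, -0.24 and -0.32. On the ratio, Mxi1 was at -0.33 with centring, -0.22 to 1.00 without single replicates and -0.27 without those 2 libraries, and Mga at -0.23 with centring. For 60 minus 15 min, with no test since 1 library per group is left, Mxi1 in labeled RNA ran from -0.38 to 0.20 (0.030 with centring), Max in total RNA from -0.83 to 0.19 and the change for Mxi1 from -0.16 to 0.46. Depth is unknown, and values near 1 are set by the limit of the table.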
